A study of Mus musculus with 12 samples.

Results

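Ccl17 and Ccl22 encode a pair of chemokines, and Ccr4 and Ccr8 encode receptors carried by T cells that answer to chemokines of this kind. These 4 genes, chosen by name, were followed through the cell classes of the authors' annotation in 4T1 mouse mammary tumours. They are 4 of the 19369 genes in the tables of the Total libraries and of the 18574 genes in the tables of the CD45 libraries, and all 4 were present in both.

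Tumours were grown in female BALB/c mice of 9 to 11 weeks from 6 cell populations of 4T1, a mouse line used as a model of triple-negative breast cancer. They were Parental 4T1 and 5 lines named Clone E, Clone EM1, Clone EM2, Clone EM3 and Clone M, each grown from a single cell. The cells were placed in the mammary fat pad of mice with an intact immune system, and the labels name no treatment. Each population gave 1 tumour with 2 libraries. The first, called Total, holds the cells of the whole digested tumour, and the second, called CD45, holds leukocytes pulled out with magnetic beads. Each clonal line is thus 1 clone measured in 1 tumour, so that clone, tumour and library preparation cannot be told apart. No test was made between groups, the only tests being of 4 relations over the 6 tumours, and every interval below covers counting error only.

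CCL17 and CCL22 are both ligands of CCR4, and mature dendritic cells are a known source of them. CCR4 and CCR8 are found on regulatory T cells, which are marked by the factor Foxp3, and on Th2-type helper T cells. CCR8 answers to other ligands, CCL1 and, in the mouse, CCL8. By its title the series concerns epithelial-mesenchymal transition and the immune cells of the tumour. The question followed here is which cells hold the ligands and which hold the receptors.

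The 12 libraries held 6709 to 13467 cells and 28083101 to 122055131 UMIs, that is, unique molecular identifiers, with which captured RNA molecules are counted. Cells scored as doublets, 3136 of 115612 (2.71%), were left out. In 14 pairs of libraries 818 to 1760 cell barcodes of 16 bases were shared. This is 12.2% to 19.1% of the smaller library, against 0.686% to 1.91% in the other 52 pairs. With the sample tag that follows the barcode included, 0 were shared in the 14 pairs and up to 189 in the other 52. Shared barcodes below are those of 16 bases without the tag. Counted against all other libraries together, they were found in 24.9% to 42.0% of the deposited cells of a CD45 library. The 14 pairs lie within Clone E and EM3, within EM1 and EM2, within Clone M and within Parental 4T1, so that each comparison of Clone M with another tumour crosses these sets of libraries. Levels are given as CPM, the usual scaling of a gene's UMIs to the summed UMIs of the same class and library.

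The class named dendritic cells held 315 cells for Clone E, 211 for EM1, 337 for EM2, 289 for EM3, 93 for M and 149 for Parental 4T1 in the CD45 libraries. The Total libraries held 157, 55, 170, 111, 107 and 65 such cells in the same order. Each of the 10 dendritic markers examined was detected in the class in each of the 12 libraries, among them Zbtb46 at 60.6 to 111 CPM, Clec9a at 84.1 to 253 CPM and H2-Ab1 at 8466 to 12230 CPM in the CD45 libraries. Summed over the 10 genes, they stood there at 34103 to 47863 CPM, against 8460 to 26929 CPM in macrophages. The class also held RNA of macrophage markers. Their summed level over 6 genes was 3970 CPM for Clone E, 6937 for EM1, 4000 for EM2, 4769 for EM3, 1427 for M and 3127 for Parental 4T1, and 403 to 1363 CPM in the Total libraries. Macrophages held the same genes at 8781 to 14517 CPM in the CD45 and 7795 to 13993 CPM in the Total libraries. A UMI of C1qa or C1qb was found in 53.8% to 87.9% of the dendritic cells of the CD45 libraries. Summed T cell markers stood at 76.2 to 318 CPM and summed granulocyte markers at 673 to 4078 CPM. A UMI of Cd3d, Cd3e or Cd3g was found in 84 of 315 dendritic cells for Clone E, 60 of 211 for EM1 and 49 of 337 for EM2. For EM3 it was 65 of 289, for M 6 of 93 and for Parental 4T1 15 of 149. The part of these other transcripts in the results below was not tested, except where values without such cells are given.

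Both ligand genes lie on chromosome 8 of the mouse, Ccl22 at chr8:94745684-94751388 and Ccl17 at chr8:94809380-94812038 in the RefSeq annotation of GRCm38.p6. A stretch of 57991 bases with 3 annotated genes separates them. The receptors lie on chromosome 9, Ccr4 at chr9:114490316-114505476 and Ccr8 at chr9:120092133-120094906. The 250 bases before 1 transcript start per gene, the one used by the RefSeq promoter table, were searched for TTCNNNGAA and TTCNNNNGAA, the spaced half-sites read by STAT factors such as STAT6, and for the kappa B consensus read by NF-kappa B, on both strands. For Ccl17 and Ccr4 that start lies inside the longer gene span given above. The upstream stretches of both ligand genes are shown because these genes shared their main cell class, with matches in capitals. That of Ccl22 stops where the first annotated exon of GENCODE M21 begins.

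Ccl17, chr8:94810203-94810452, plus strand: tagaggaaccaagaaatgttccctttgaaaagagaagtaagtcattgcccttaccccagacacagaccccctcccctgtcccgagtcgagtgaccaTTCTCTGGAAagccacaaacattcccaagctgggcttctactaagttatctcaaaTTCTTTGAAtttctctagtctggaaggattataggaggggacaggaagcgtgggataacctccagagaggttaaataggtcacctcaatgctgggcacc
Ccl22, chr8:94745434-94745589, plus strand: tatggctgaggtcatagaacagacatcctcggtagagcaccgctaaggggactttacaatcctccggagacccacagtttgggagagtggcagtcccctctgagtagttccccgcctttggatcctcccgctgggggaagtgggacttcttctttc

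The Ccl17 stretch held 1 match to TTCNNNGAA, at -99 to -91 from that transcript start, and 1 match to TTCNNNNGAA, at -154 to -145. The windows of Ccl22, Ccr4 and Ccr8 held no match to any of the 3 patterns. Among 32851 mouse promoter windows of the same length, 7.02% held TTCNNNGAA, 5.85% held TTCNNNNGAA and 3.90% held the kappa B consensus. A match describes the letters in the window and is not a measured binding site.

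Dendritic cells held most of the Ccl17 and Ccl22 UMIs of each CD45 library. For Ccl17 they held 2288 of 3675 UMIs (62.3%) for Clone E, 950 of 1093 (86.9%) for EM1, 1231 of 1331 (92.5%) for EM2, 3464 of 4216 (82.2%) for EM3, 111 of 144 (77.1%) for M and 1347 of 1440 (93.5%) for Parental 4T1. These cells were 1.25% to 3.76% of the cells of their libraries. For Ccl22 the share was 78.0% for Clone E, 78.5% for EM1, 84.9% for EM2, 88.3% for EM3, 70.2% for M and 88.4% for Parental 4T1. Macrophages held most of the rest, 4.31% to 34.1% of the Ccl17 UMIs and 8.99% to 21.2% of the Ccl22 UMIs.

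In the Total libraries the dendritic share of Ccl17 was lower in each tumour, at 35.2% to 76.6%. For Ccl22 it was 55.1% to 82.2%, lower in each tumour but Clone E, where it was 82.2% against 78.0% in the CD45 library. Tumour cells, the most numerous class in 3 of the 6 Total libraries, held 2.03% to 19.5% of the Ccl17 UMIs, at a level of 1.06 to 5.85 CPM, against 1.94 to 9.43 CPM in the T and NK cells of the same libraries. For Ccl22 the level in tumour cells was 0.112 to 1.63 CPM. Cells that the authors left unnamed held a further 38.2% of the Ccl17 UMIs of Clone M, 19.2% of those of Parental 4T1 and 13.5% of those of EM1. Their share of the Ccl22 UMIs was 28.4%, 4.23% and 19.3% in that order.

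**Figure D1:**
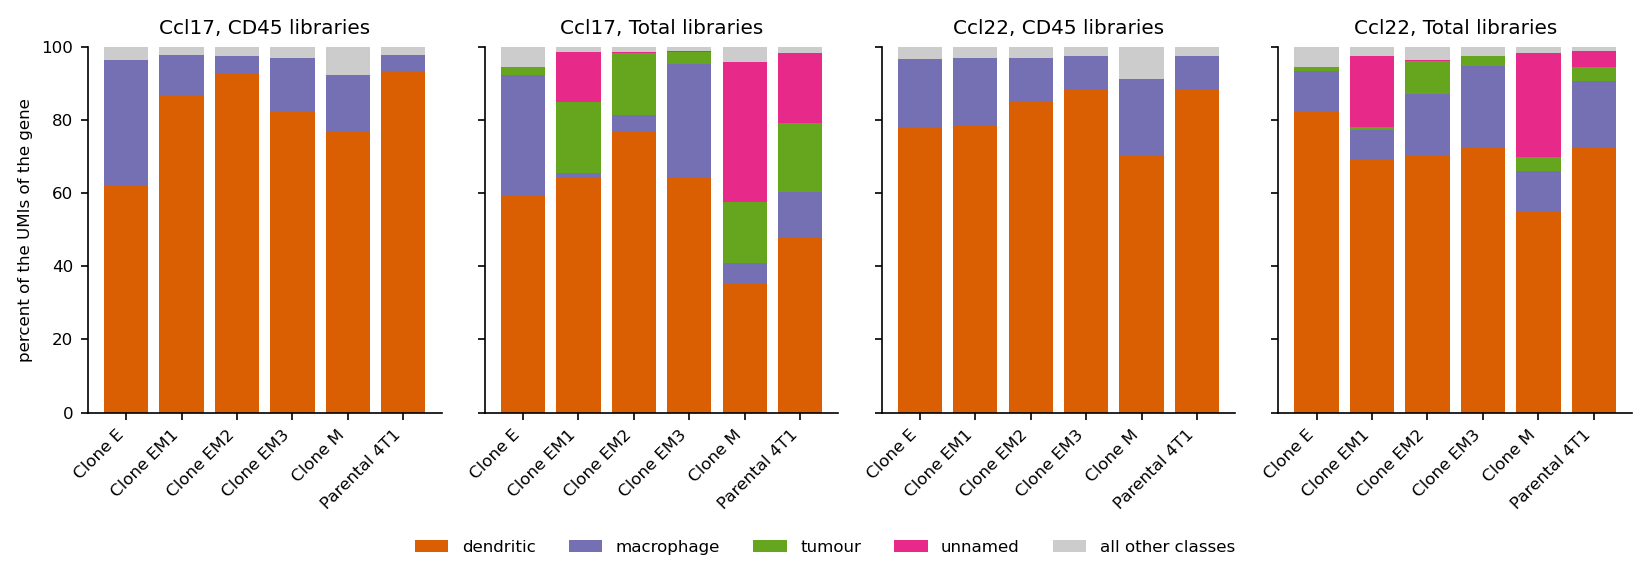
Percent of all UMIs of Ccl17 (left pair of panels) and Ccl22 (right pair) held by dendritic cells, macrophages, tumour cells, unnamed cells and all other classes, with 1 stacked bar per tumour in the CD45 and the Total libraries. Dendritic cells form the tallest segment in each CD45 bar (62.3% to 93.5% for Ccl17), while in the Total library of Clone M unnamed cells hold 38.2% of the Ccl17 UMIs.

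The dendritic level of each ligand stood far above that of macrophages in each of the 6 tumours. Macrophages held Ccl17 at 36.4 CPM for Clone E, 6.49 for EM1, 2.81 for EM2, 15.4 for EM3, 1.13 for M and 2.81 for Parental 4T1. The ratio of dendritic cells to macrophages was 31.1, 136, 299.7, 107, 183 and 719.7 in that order. Clone E had the lowest ratio, and there 1 macrophage held 465 of the 1255 macrophage Ccl17 UMIs. Without that cell the macrophage level was 22.9 CPM, and with the top cell of both classes left out the lowest ratio of the 6 tumours was 43.9.

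Macrophages held Ccl22 at 5.13 CPM for Clone E, 5.46 for EM1, 4.27 for EM2, 3.93 for EM3, 2.26 for M and 4.72 for Parental 4T1. The ratio of dendritic cells to macrophages was 70.9, 73.7, 117, 184, 120 and 326 in that order. Of 5102 genes that could be compared, 238 (4.66%) were at least 2-fold higher in dendritic cells than in macrophages in each of the 6 tumours, and Ccl17 and Ccl22 were among them. The authors' classes come from these same counts, so that this ranking is a description of the classes and no test was made.

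Among the other classes of the CD45 libraries, median levels over the 6 tumours were 8.94 CPM of Ccl17 and 3.85 CPM of Ccl22 in granulocytes, and 7.96 and 3.65 CPM in all annotated T cells. B cells reached 33.4 CPM of Ccl17 in Clone EM3. The class of Trdc+ T cells that lack Cd4 and Cd8 had 2 Ccl17 UMIs in 22 cells of EM1, where 3 UMIs would be 118 CPM, and none in the 6 to 25 cells of each other tumour.

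**Figure D2:**
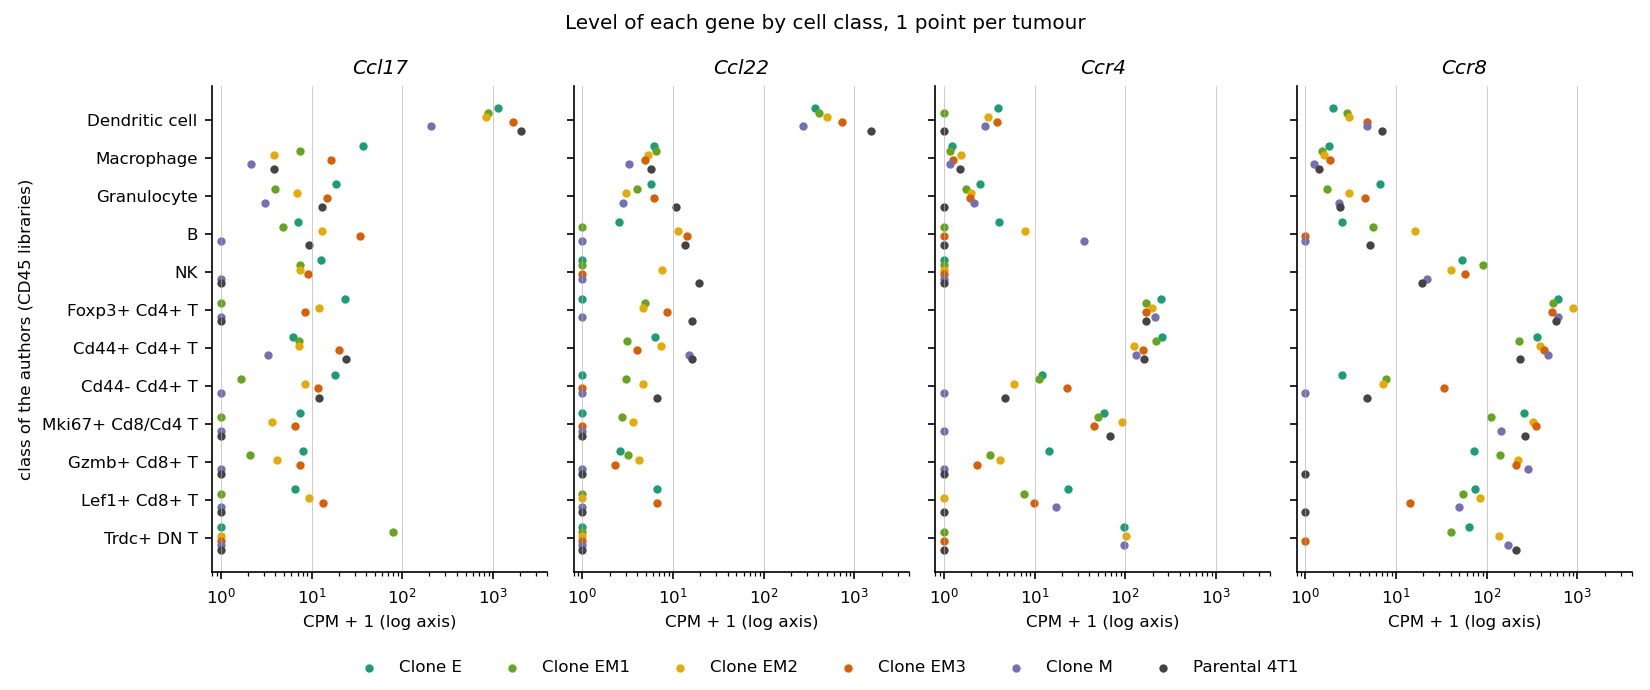
Level of Ccl17, Ccl22, Ccr4 and Ccr8 as CPM + 1 on a log axis, for classes of the CD45 libraries, with 1 point per tumour. The classes that the annotation calls Other Myeloid and T/Myeloid Hybrid are not shown. By median over the tumours, Ccl17 and Ccl22 are highest in dendritic cells (1009 and 452 CPM). Ccr4 and Ccr8 are highest by median in Foxp3+ and Cd44+ Cd4+ T cells (184 and 596 CPM in the Foxp3+ class). In single tumours the order can differ, with a lowest ratio of Cd44+ to Mki67+ cells of 0.863 for Ccr8.

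The level of Ccl17 in dendritic cells was lowest in the Clone M tumour in both of its libraries. In the CD45 libraries it was 1133 CPM for Clone E (95% Poisson interval 1087 to 1180), 886 for EM1 (831 to 944), 841 for EM2 (794 to 889), 1651 for EM3 (1596 to 1707), 206 for M (170 to 248) and 2024 for Parental 4T1 (1917 to 2135). The Total libraries gave 1112, 1178, 1773, 1672, 204 and 2045 CPM in that order. The interval of Clone M overlapped none of the other 5 in either kind of library, and Clone M stood at 111 UMIs in 93 cells and 142 UMIs in 107 cells. These intervals treat UMIs as independent and do not cover differences between cells. Leaving out the top cell alone moved the CD45 level beyond its interval in 6 of 6 tumours.

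Clone M was 5.49-fold below the median of the other 5 tumours by its CD45 library and 8.19-fold below it by its Total library. As a log2 ratio of CPM + 10, Clone M over Clone E was -2.40 in the CD45 and -2.39 in the Total libraries, and Clone M over Parental 4T1 was -3.23 and -3.26. In the dendritic cells of the CD45 libraries 5.61% of 4204 compared genes were at least 2-fold lower for Clone M than for Clone E, and in those of the Total libraries 3.18% of 4209 genes were. Ccl17 was among them in both. For Clone M against Parental 4T1, 4.44% of 4171 and 4.29% of 4310 genes were at least 2-fold lower, Ccl17 among them. In either direction 7.45% and 5.56% of genes were past 2-fold for Clone M over Clone E. For tumours whose libraries share barcodes it was 1.07% and 1.81% for EM3 over Clone E, and 1.16% and 5.46% for EM2 over EM1. These shares were not corrected for the number of dendritic cells. In the CD45 and Total libraries it was 93 and 107 for Clone M, 315 and 157 for Clone E and 289 and 111 for EM3. For EM1 it was 211 and 55, and for EM2 337 and 170. The part of few cells in the shares was not tested. For Clone M, the tumour and the set of libraries cannot be told apart. Left with only dendritic cells that had no C1q UMI, an alternative chosen after seeing the data, the fold was 4.31, and with only those that had no Cd3 UMI it was 7.14.

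The order of the remaining tumours held in part. EM3 and Parental 4T1 lay above Clone E in both kinds of library with intervals apart. EM1 and EM2 lay below Clone E in the CD45 libraries, while in the Total libraries EM2 lay above it and the interval of EM1 overlapped that of Clone E. EM1 and EM2 had overlapping intervals in the CD45 libraries, and EM2 was higher in the Total libraries, at a log2 ratio of 0.59. EM3 over Clone E was 0.54 and 0.58. Cells whose barcode occurs in any other library were 37.7% of the deposited CD45 cells of EM1 and 37.1% of those of EM2. Without such cells Ccl17 in the CD45 libraries was 596 CPM for EM1 and 930 for EM2, whose intervals overlapped with all cells. Clone M stayed 5.42-fold below the median of the others. In EM1 1 dendritic cell held 272 of the 950 Ccl17 UMIs of the class (28.6%). The part of that cell in the change was not tested.

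Ccl22 varied otherwise between tumours. In the CD45 libraries it was 364 CPM for Clone E (338 to 392), 403 for EM1 (366 to 443), 501 for EM2 (465 to 538), 723 for EM3 (687 to 760), 271 for M (229 to 319) and 1537 for Parental 4T1 (1444 to 1634). The Total libraries gave 743, 985, 894, 724, 787 and 3014 CPM in that order. Parental 4T1 was highest in both. Clone M was lowest in the CD45 libraries, but in the Total libraries it lay within the range of the other clones.

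The log2 ratio of Clone M over Clone E for Ccl22 was -0.41 in the CD45 and 0.082 in the Total libraries, so that its direction differed between libraries of the same tumours, and it did not reach 2-fold in either. Clone M was 1.85-fold below the median of the other 5 tumours in the CD45 libraries and 1.14-fold below it in the Total libraries. Clone M over Parental 4T1 was -2.46 and -1.92, where 4.44% and 4.29% of compared genes were at least 2-fold lower. EM3 over Clone E was 0.97 in the CD45 and -0.04 in the Total libraries, and EM2 over EM1 was 0.31 and -0.14. Without cells of shared barcodes Ccl22 in the CD45 libraries was 479 CPM for EM1 and 352 for EM2, the reverse of their order with all cells.

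**Figure D3:**
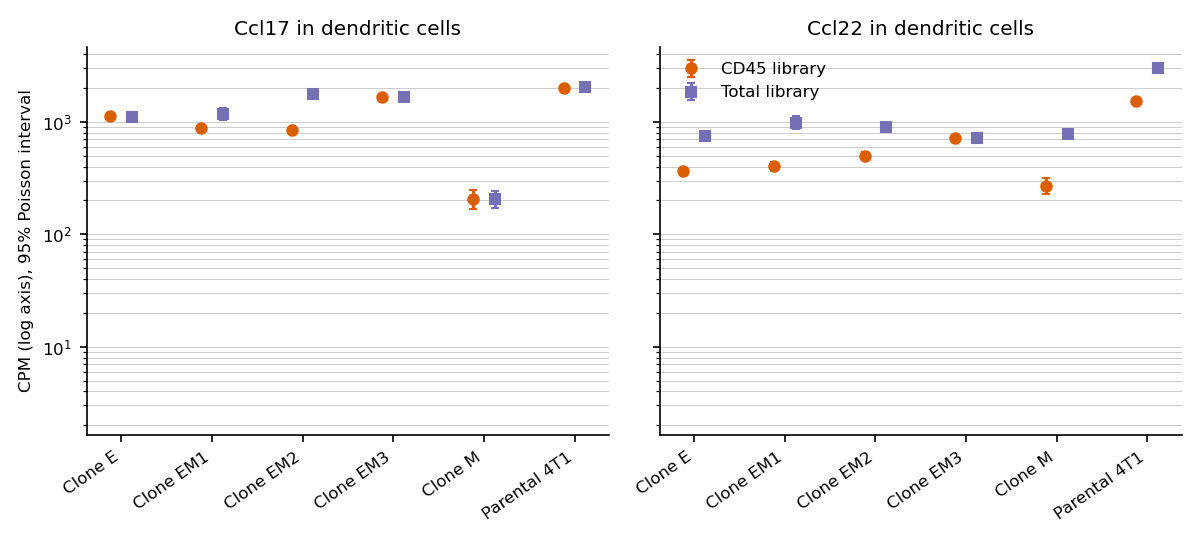
Level of Ccl17 (left) and Ccl22 (right) in dendritic cells as CPM on a log axis, for the 6 tumours, with circles for CD45 and squares for Total libraries and bars for the 95% Poisson interval. Clone M has the lowest Ccl17 in both kinds of library (206 and 204 CPM), while its Ccl22 is lowest only in the CD45 libraries (271 CPM, against 787 CPM in the Total library).

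The balance of the ligands also set Clone M apart in these libraries. The ratio of Ccl17 to Ccl22 UMIs in dendritic cells was 3.11 for Clone E, 2.20 for EM1, 1.68 for EM2, 2.28 for EM3, 0.760 for M and 1.32 for Parental 4T1 in the CD45 libraries. In their Total counterparts it was 1.497, 1.20, 1.98, 2.31, 0.260 and 0.679. The 95% interval of Clone M was 0.589 to 0.980 in the CD45 and 0.214 to 0.313 in the Total library, below that of each other tumour of the same kind of library. This ratio is compared between tumours and says nothing of the level of 1 gene against the other, since capture can differ between genes.

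A UMI of either ligand was found in part of the dendritic cells. In the CD45 libraries 29.2% of the dendritic cells of Clone E had a Ccl17 UMI, 21.3% of EM1, 24.9% of EM2, 42.6% of EM3, 12.9% of M and 42.3% of Parental 4T1. For Ccl22 the shares were 21.9%, 30.8%, 30.9%, 37.4%, 25.8% and 47.0%. The Total libraries gave 16.8% to 55.0% for Ccl17 and 25.5% to 50.8% for Ccl22. With the CD45 cells thinned to 1000 UMIs, leaving out 58 of 1394 dendritic cells with fewer, the shares were 9.00% to 37.3% for Ccl17 and 12.7% to 38.2% for Ccl22. In granulocytes, which served as a background for free RNA, 0.237% to 1.92% of the cells had a Ccl17 UMI, at a median of 689.5 to 1220 UMIs per cell against 3583 to 5964 in dendritic cells.

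The UMIs were concentrated in few of those cells. In the CD45 libraries the tenth of dendritic cells with the most Ccl17 held 65.1% of its UMIs in Parental 4T1 and 77.4% to 95.5% in the 5 clones. For Ccl22 the same share was 59.6% in Parental 4T1 and 78.5% to 89.4% in the clones. Single cells held up to 369 UMIs of Ccl17 and up to 269 of Ccl22, both in EM3. In Clone M no cell held more than 23 UMIs of Ccl17 or 25 of Ccl22 in the CD45 library, while single cells of its Total library held up to 43 and 98. For the tenth of dendritic cells with the most UMIs, the share in the Total libraries was 63.8% for Ccl17 in Parental 4T1 and 66.6% to 86.6% in the clones, and 63.5% and 65.3% to 89.3% for Ccl22, so that Parental 4T1 was closer to the clones there. With the top cell of each tumour left out, an alternative chosen after seeing the data, the Ccl17 levels of the CD45 libraries were 165 CPM in Clone M and up to 1852 CPM in Parental 4T1. Levels fell to 0.718 to 0.915 times for Ccl17 and 0.827 to 0.901 times for Ccl22. Either ligand moved beyond its counting interval in 6 of 6 tumours.

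Many dendritic cells with Ccl17 also had Ccl22. Among cells with a Ccl17 UMI, 43.5% for Clone E, 80.0% for EM1, 58.3% for EM2, 62.6% for EM3, 83.3% for M and 76.2% for Parental 4T1 also had a Ccl22 UMI. Among the other dendritic cells 13.0% to 25.6% had one. In Clone M 10 dendritic cells had both, 2 had Ccl17 alone, 14 had Ccl22 alone and 67 had neither. Depth per cell and free RNA are shared by both counts within a cell, and no test was made over cells.

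Dendritic cells were then split by transcripts of maturity and of lineage. Fscn1 encodes fascin, an actin-bundling protein of mature dendritic cells. Dendritic cells with an Fscn1 UMI held Ccl22 at 2884 CPM for Clone E, 2482 for EM1, 3793 for EM2, 3221 for EM3, 1736 for M and 6487 for Parental 4T1. Those without one held it at 111, 237, 184, 426, 171 and 609 CPM. Cells with Fscn1 were 6.45% to 25.5% of the class and held 41.1% to 72.4% of its Ccl22 UMIs.

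The ratio for Ccl22 was 7.57 to 26.1 over the 6 tumours, with an interval above 1 in 6 of 6, and 3.52 to 12.8 in the Total libraries. For Ccl17 the ratios were 3.13 for Clone E, 0.798 for EM1, 0.900 for EM2, 1.03 for EM3, 2.45 for M and 0.770 for Parental 4T1. The interval of that ratio lay above 1 in 2 tumours, Clone E and M, and below 1 in Parental 4T1. The Ccl17 ratio of the Total libraries ran from 0.0859 for EM1, on 3 UMIs in 7 cells with Fscn1, to 7.05 for M. It was above 1 in 5 of 6 tumours there, with an interval above 1 in 4 and below 1 in 1. Fscn1 was at 406 to 682 CPM in the tumour cells of those libraries and at 12.2 to 30.4 CPM in their macrophages, against 0.866 to 2.27 CPM in the macrophages of the CD45 libraries. Of the dendritic cells with Fscn1, 13 of 26 in Clone M, 14 of 32 in Clone E and 13 of 29 in Parental 4T1 had just 1 Fscn1 UMI in the Total libraries, against 1 of 6, 3 of 38 and 1 of 38 in the CD45 libraries. The same counts were 2 of 7 in EM1, 15 of 44 in EM2 and 13 of 30 in EM3, against 3 of 20, 9 of 49 and 8 of 38. The part of free Fscn1 RNA in the split of the Total libraries was not tested. Clone M had only 6 dendritic cells with an Fscn1 UMI in its CD45 library. Cells with Fscn1 had medians of 2168 to 5413 UMIs, against 3796.5 to 6320 in those without.

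Ccr7, the receptor that guides mature dendritic cells to lymph nodes, was detected in 63.2% to 79.2% of the dendritic cells of the CD45 libraries. These cells held 96.6% to 99.1% of the Ccl22 UMIs and 82.7% to 100% of the Ccl17 UMIs of the class. The ratio of cells with to cells without a Ccr7 UMI was 12.9 to 36.8 for Ccl22. For Ccl17 it was 2.68 to 25.3 in the 5 tumours that gave a ratio. In Clone M the 29 dendritic cells without Ccr7 held 0 Ccl17 UMIs, where 3 UMIs would be 16.4 CPM. In the Total libraries the Ccr7 ratio was 13.3 to 130.4 for Ccl22 in the 6 tumours. For Ccl17 it was 1.25 to 21.98 in the 5 that gave a ratio, lowest for Clone E, whose cells with Ccr7 held 74.4% of the Ccl17 UMIs.

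**Figure D4:**
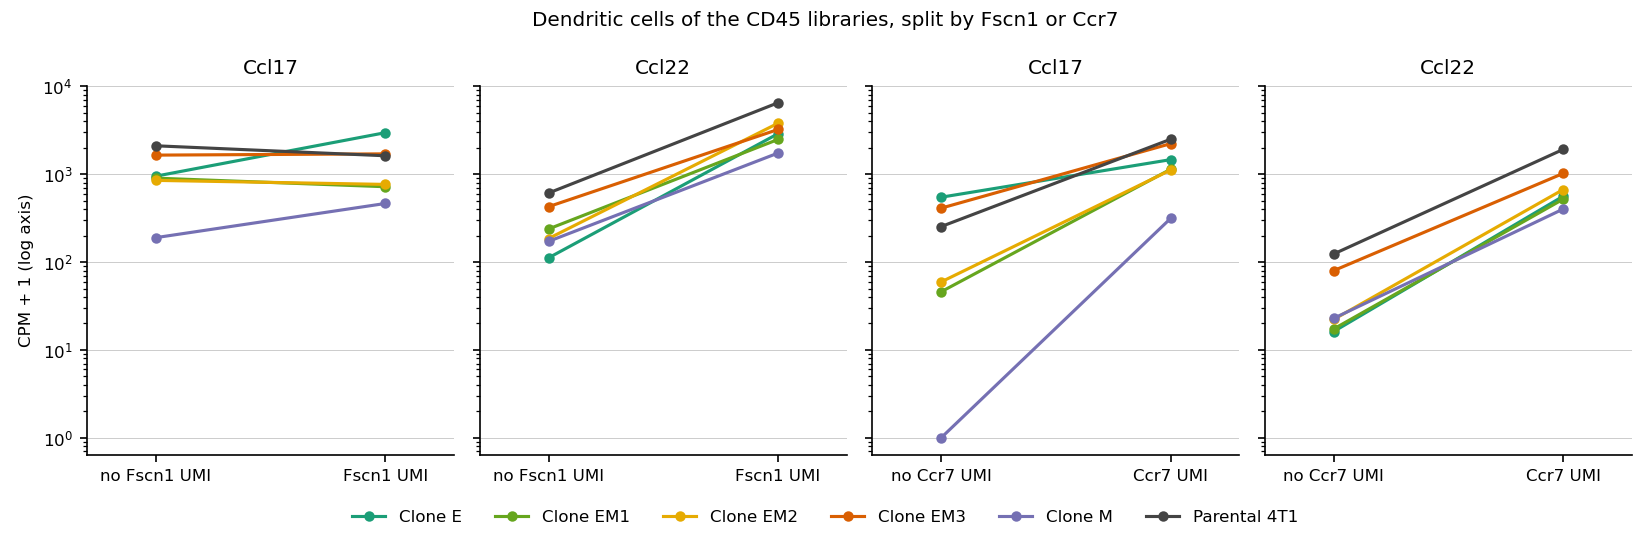
Level of Ccl17 and Ccl22 as CPM + 1 on a log axis in dendritic cells of the CD45 libraries without and with a UMI of Fscn1 (left pair of panels) or Ccr7 (right pair), with 1 line per tumour. Ccl22 is higher with Fscn1 in each of the 6 tumours (7.57-fold to 26.1-fold), whereas the Ccl17 lines run in both directions (ratios of 0.770 to 3.13).

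Clec9a and Xcr1 mark the lineage of conventional dendritic cells that presents antigen to Cd8 T cells. Dendritic cells with a UMI of either held Ccl17 at 506 CPM for Clone E, 999 for EM1, 224 for EM2, 1087 for EM3, 77.3 for M and 1155 for Parental 4T1, against 1512, 838, 1221, 2022, 351 and 2310 CPM in the others. The ratio was below 1 in 5 of 6 tumours, at 0.183 to 0.538, and 1.19 in EM1 with an interval of 1.04 to 1.37. For Ccl22 its interval lay below 1 in the same 5 tumours, and in EM1 the ratio was 1.22 with an interval of 0.990 to 1.49. In the Total libraries both ratios lay below 1 in 6 of 6 tumours. Cells with Clec9a or Xcr1 had medians of 4245 to 6585.5 UMIs in the CD45 libraries, against 3204 to 5710.5 in the others. In the Total libraries the medians were 3962 to 7462 against 3306.5 to 5553. The part of depth in this split was not tested.

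Genes known to regulate these ligands or to mark mature dendritic cells were set beside them for Clone M against Clone E. Of the 10 mature dendritic genes listed 9 reached the level for comparison in the CD45 libraries, 2 were at least 2-fold higher and 0 lower, where 1.83% of all compared genes were higher and 5.61% lower. Their median log2 ratio was 0.75 against -0.03 over all genes. Those 2 were Cd40, a co-stimulatory receptor, at 1.07 and Cd83 at 1.35. In the Total libraries 4 were higher, Ccr7 at 1.10, Relb at 1.11, Il4i1 at 1.82 and Cd40 at 1.39, and 1 was lower, Pdcd1lg2 at -1.10, where 2.38% of all compared genes were higher and 3.18% lower. Their median there was 0.72 against -0.000601 over all genes. Set against Parental 4T1, all 10 were compared and none was at least 2-fold higher in Clone M. In the CD45 libraries 3 were lower, where 4.44% of all compared genes were lower and 2.18% higher, and the median of the list was -0.18 against -0.04 over all genes. By the Total libraries 2 were lower, where 4.29% were lower and 2.3% higher, and the medians were -0.04 and -0.03. The sign of the list's median thus depended on the tumour that Clone M was compared with.

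Of the 6 regulators listed, 5 were compared in the CD45 libraries, with a median log2 ratio of 0.61 against -0.03 over all genes, and 1 was at least 2-fold lower, where 5.61% of all compared genes were. This was Il4ra, the chain through which IL-4 and IL-13 signal, at -1.28. Il4ra stood at -0.23 in the Total libraries, where Relb, an NF-kappa B subunit, was the only 1 of the 5 compared that was past 2-fold, in the higher direction, where 2.38% of all compared genes were. Against Parental 4T1, 0 of the 5 compared were past 2-fold for Clone M in either kind of library, and their medians were 0.08 and 0.19 against -0.04 and -0.03 over all genes. Stat6, which acts downstream of Il4ra, was at 202 to 237 CPM in dendritic cells over the 6 tumours, and Irf4 at 9.29 to 31.4 CPM. Csf2rb, a chain of the GM-CSF receptor, was at 1370 to 2873 CPM.

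Of the other 10 genes of the ligand and trafficking list, 5 were compared in dendritic cells of the CD45 libraries, and 2 were at least 2-fold lower for Clone M against Clone E, where 5.61% of all compared genes were. They were Ccl8 at -1.97 and Ccl5 at -1.69. Of 4 compared in the Total libraries 1 was higher, Ccr7, where 2.38% of all compared genes were, while Ccl5 was at -0.72. In the CD45 libraries macrophages held Ccl8 at a median of 200 CPM, and Gzmb+ Cd8+ T cells held Ccl5 at a median of 5598 CPM. The dendritic class there had a C1q UMI in 70.2% of cells for Clone E and 53.8% for Clone M. It had a Cd3 UMI in 84 of 315 and 6 of 93 cells. The part of RNA from other classes in the Ccl8 and Ccl5 ratios was not tested. Dpp4, a protease that trims CCL22, was at 57.8 to 125 CPM in dendritic cells. Ackr2, a scavenger receptor for these ligands, was at 0 in the dendritic cells of each CD45 library.

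Ccr4 was highest in the Foxp3+ and the Cd44+ classes of Cd4+ T cells. In the Foxp3+ class it was 248 CPM for Clone E, 169 for EM1, 199 for EM2, 167 for EM3, 215 for M and 168 for Parental 4T1. In the Cd44+ class, which holds antigen-experienced helper cells, it was 254, 219, 123, 155, 132 and 161 CPM. The ratio of Foxp3+ to Cd44+ cells was 0.773 to 1.63 with a median of 1.06, and its interval lay above 1 in 2 tumours, EM2 and M, and below 1 in none. These neighbours in the order of levels thus did not differ beyond their counting intervals in 4 of 6 tumours.

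Ccr4 was also counted in other T cell classes. The Mki67+ class, dividing cells that the annotation gives as Cd8/Cd4, held 0 to 90.1 CPM, and Cd44+ cells were above them with an interval above 1 in 4 of 6 tumours. Trdc+ T cells held 0 to 100.9 CPM, on 0 to 4 UMIs in 6 to 25 cells per tumour, with intervals that reached the Cd44+ level in 5 of 6 tumours, all but EM1. Gzmb+ Cd8+ T cells held 0 to 13.4 CPM and dendritic cells 0 to 2.97 CPM. All T cells together held 80.3% to 97.0% of the Ccr4 UMIs of the CD45 libraries. In the T and NK class of the Total libraries Ccr4 was at 42.4, 34.5, 44.2, 56.3, 63.6 and 37.7 CPM, and it held 78.4% to 88.7% of the Ccr4 UMIs of the 5 clones. In Parental 4T1 it held 40 of 110 Ccr4 UMIs (36.4%) and tumour cells 52 (47.3%), at 0.611 CPM.

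Ccr8 was higher in the Foxp3+ than in the Cd44+ class of each tumour. In the Foxp3+ class it was 611 CPM for Clone E, 534 for EM1, 887 for EM2, 525 for EM3, 614 for M and 582 for Parental 4T1, and in the Cd44+ class 356, 227, 385, 426, 473 and 229 CPM. The ratio was 1.23 to 2.54 with a median of 2.01, and its interval lay above 1 in 6 of 6 tumours. It was smallest in EM3 (1.23) and M (1.296). Of 6236 genes compared, 82 (1.31%) were at least 2-fold higher in Foxp3+ than in Cd44+ cells in each of the 6 tumours, and neither receptor gene was among them.

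Ccr8 was also found in other classes. The Mki67+ Cd8/Cd4 class held 109.6 to 353 CPM, and as a mixed class it also held Foxp3, at 107.6 to 554 CPM. Gzmb+ Cd8+ T cells, a cytotoxic class, held 71.1 CPM for Clone E, 140.0 for EM1, 221 for EM2, 209.9 for EM3 and 285 for M. In Parental 4T1 that class had 8 cells and 0 UMIs, where 3 UMIs would be 243 CPM and the exact upper limit is 298 CPM. NK cells held 18.2 to 90.9 CPM, and cells that the annotation calls T/Myeloid Hybrid 52.6 to 305 CPM, highest in Parental 4T1 with 17 UMIs in 16 cells. Trdc+ T cells held 0 to 209.97 CPM, on 0 to 7 UMIs per tumour. All T cells together held 78.3% to 92.9% of the Ccr8 UMIs, and the T and NK class of the Total libraries held Ccr8 at 109, 102, 193, 197, 228 and 50.9 CPM. That class held 89.2% to 93.3% of the Ccr8 UMIs of the 5 clones, and in Parental 4T1 it held 54 of 120 against 38 in tumour cells.

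Of the Foxp3+ cells 13.3% to 26.2% had a Ccr4 UMI and 31.3% to 46.4% had a Ccr8 UMI, and with cells thinned to 1000 UMIs, leaving out 373 of 1270 with fewer, 10.7% to 18.6% and 29.3% to 45.8% did. In macrophages, deeper at a median of 5125 to 7662 UMIs against 987 to 1579, the shares were 0.0907% to 0.292% and 0.201% to 0.699%. Both receptors were detected in 11.8% of the Foxp3+ cells of Clone E, 5.21% of EM1, 6.64% of EM2, 7.42% of EM3, 5.10% of M and 3.23% of Parental 4T1. The Cd44+ class held cells with a Foxp3 UMI, from 5 of 280 in Clone M to 41 of 310 in EM2. Without them its Ccr8 was 249 CPM in Parental 4T1 and 467 CPM in Clone M, an alternative chosen after seeing the data.

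The receptor levels of Clone M and Clone E did not differ beyond their counting intervals in the Foxp3+ class. The log2 ratio was -0.20 for Ccr4 (interval of the log2 ratio of CPM -0.71 to 0.29) and 0.01 for Ccr8 (-0.29 to 0.31), where 6.27% of 5086 genes were past 2-fold in either direction and neither receptor was. In the Cd44+ class the log2 ratio was -0.90 for Ccr4, with counting intervals apart (99.7 to 171 CPM for Clone M and 214 to 299 for Clone E). For Ccr8 it was 0.40, also with intervals apart (411 to 543 and 309 to 408 CPM). Past 2-fold in either direction were 5.35% of 5139 genes of that class and neither receptor. Against Parental 4T1, the log2 ratio of Ccr8 in the Cd44+ class was 1.01 in Clone M, 0.87 in EM3, 0.72 in EM2, 0.61 in Clone E and -0.01 in EM1. In that class 5.29% of 5255 compared genes were at least 2-fold higher in Clone M than in Parental 4T1, and Ccr8 was among them. The parental level rested on 30 Ccr8 UMIs in 112 cells.

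The ligands of CCR8 were seen in several classes. Ccl1 was found in Cd44+ Cd4+ T cells at 53.6 to 868 CPM with a median of 256, against 0 to 15.1 CPM in the Foxp3+ class and 0 to 0.990 CPM in dendritic cells. Ccl8 was found at 38.3 to 418 CPM in macrophages and 5.58 to 179.6 CPM in dendritic cells of the CD45 libraries, and at 53.5 to 396 and 0 to 28.4 CPM in those of the Total libraries. The Th2 genes of the Cd44+ class varied widely between tumours, with Il13 at 9.46 to 1067 CPM, Il5 at 107 to 926 CPM and Il4 at 0 to 97.0 CPM, while Gata3, the factor of that lineage, was at 605 to 1176 CPM. Foxp3 itself was at 2036 to 2328 CPM in the class named for it.

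The genes most like each member were found by the correlation of log2 levels over 72 class-by-library points of the CD45 libraries, among 7605 genes. The points share libraries and depth, so that r is a description with no p. For Ccl17 the nearest were Plet1 (r = 0.95), Adam23 (0.94), Ccl22 (0.94), Il12b (0.94) and Gpr141b (0.92). For Ccl22 they were Adam23 (0.95), Il12b (0.95), Zfp366 (0.94), Ccl17 (0.94) and Gpr141b (0.94). With log2(CPM + 1) the r of Ccl17 with Ccl22 was 0.78, and Gpr82 took the place of Ccl17 in the list of Ccl22. Adam23, in both lists, was at 82.1 to 124 CPM in dendritic cells and at most 5.83 CPM in the other classes compared. These r values thus describe mainly the contrast of dendritic cells with the other classes. In dendritic cells Plet1 was at 831 to 2401 CPM and Il12b, which encodes a subunit of IL-12 and IL-23, at 35.3 to 176 CPM.

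For Ccr4 the nearest genes were Ccn4 (r = 0.91), Il1rl1 (0.90), Tnfrsf4 (0.90), Izumo1r (0.89) and Foxp3 (0.86). Il1rl1, the receptor of IL-33, was at 1779 to 2265 CPM in the Foxp3+ class and 271 to 751 CPM in the Cd44+ class. For Ccr8 they were Penk (0.93), Ctla4 (0.90), Ttc39c (0.90), Tent5a (0.90) and Icos (0.89). Penk, which encodes the precursor of enkephalin peptides, was at 1075 to 2915 CPM in the Foxp3+ class and 375 to 3436 CPM in the Cd44+ class.

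Source cells and receptor-bearing cells were set side by side per tumour. Foxp3+ cells were 10.8% of annotated T cells for Clone E, 6.97% for EM1, 11.5% for EM2, 21.1% for EM3, 28.5% for M and 11.6% for Parental 4T1. There were 0.619, 1.00, 0.626, 1.26, 2.11 and 0.624 Foxp3+ cells per dendritic cell in the CD45 libraries. The Ccl22 UMIs held by dendritic cells came to 3.77, 2.05, 3.47, 4.16, 0.745 and 11.0 per Foxp3+ cell. In these CD45 libraries Clone M had the most Foxp3+ cells per dendritic cell and the fewest Ccl22 UMIs per Foxp3+ cell. The Total libraries have no Foxp3+ class, so that neither measure could be taken there. In them dendritic cells were 0.831% of all cells for Clone M and 0.621% for Parental 4T1. These shares are not comparable with those of leukocytes, since tumour cells were 35.3% and 56.2% of the same libraries. The dendritic Ccl22 of Clone M in its Total library, 787 CPM, lay within the 724 to 985 CPM of the other 4 clones.

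No relation between the ligands and the Foxp3+ share of T cells was found over the 6 tumours. For Ccl17 in dendritic cells Pearson's r was -0.36 (two-sided exact permutation p = 0.467, adjusted p = 0.622) and Spearman's rho was -0.0857 (p = 0.919). For Ccl22 in dendritic cells r was -0.21 (exact permutation p = 0.869, adjusted p = 0.869) and rho was 0.0286 (p = 1). For Ccl22 over the whole CD45 library r was -0.38 (exact permutation p = 0.450, adjusted p = 0.622) and rho was 0.0857 (p = 0.919). For the dendritic share of cells r was -0.57 (exact permutation p = 0.247, adjusted p = 0.622) and rho was -0.486 (p = 0.356).

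The p-values of these 4 relations were adjusted by the Benjamini-Hochberg method. Leaving out the 2 tumours farthest from the median of each measure gave r of 0.91 for Ccl17, -0.73 for Ccl22 in dendritic cells, 0.93 for Ccl22 over the library and 0.37 for the dendritic share, each over 4 tumours. With Foxp3+ cells counted as a share of all cells, which was highest in EM3 (3.39%) and not in Clone M (2.63%), r for the dendritic share was -0.03 (exact permutation p = 0.958, adjusted p = 0.958). Without those 2 tumours the sign thus turned in 3 of the 4 and rested on those tumours, which were Clone M and Parental 4T1 for Ccl17 and for Ccl22 over the library. The groups of libraries that share barcodes held 1 or 2 tumours each, too few for a value within them.

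**Figure D5:**
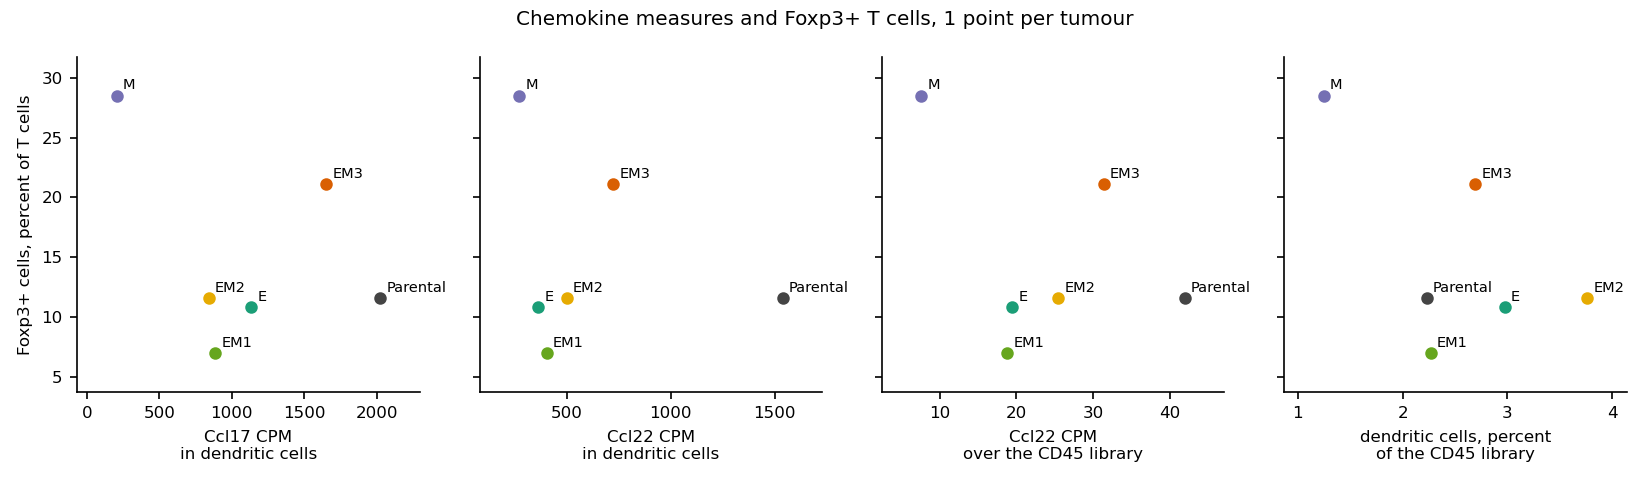
Percent of T cells in the Foxp3+ class against Ccl17 in dendritic cells, Ccl22 in dendritic cells, Ccl22 over the CD45 library (all as CPM) and dendritic cells as percent of the CD45 library, with 1 point per tumour. Clone M has the highest Foxp3+ share (28.5%) with the lowest value on each horizontal axis, and r over all 6 tumours runs from -0.57 to -0.21.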

How the data were processed

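The authors deposited UMI counts, not normalized, for every gene in every cell, and a second table with a class for each cell. Per the submitters' processing notes Cell Ranger and mm10 were used, and versions are not given in the sources used here. Since the labels name a fixed-RNA kit as well as 3' reagents, the library chemistry is open. The authors' limits on cells are not given in the sources used here.

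Counts were summed per class and library and given as CPM with exact Poisson intervals, shares with exact Clopper-Pearson intervals and ratios with exact conditional intervals, all at 95% and for counting error only. A count of 0 was read as fewer than 3 UMIs. Doublets were called with the Scrublet method, written anew in Python, with 2 simulated pairs per cell, an expected share of 6%, 2000 variable genes, 30 components and 1 score limit of 0.247 for all libraries. It marked 1.53% to 4.43% of a library, 2.71% in all.

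Log2 ratios used CPM + 10 and genes with at least 50 CPM in 1 of the classes compared. With 1 tumour per group, the only tests were exact two-sided permutation tests of 4 relations over 6 tumours. The ratio script was tested on simulated data. Named genes were the 4 members, the fixed lists, and the 5 genes with the highest Pearson r of log2(CPM + 10) to each member, over classes of at least 30 cells, among genes reaching 50 CPM in at least 3 points. Members and lists were chosen with earlier results of these data known. Sequences and positions are RefSeq's for GRCm38.p6. Python 3.11.15, numpy 2.4.6, scipy 1.17.1, pandas 2.3.3, scikit-learn 1.9.0 and scikit-image 0.26.0 were used.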

Additional observations from a re-analysis of the deposited data

Results flagged for a closer look

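Both ligands were also found in cells that the authors left unnamed in the Total libraries, a class whose levels are not compared between tumours and whose UMIs count in the total behind the dendritic shares. In Clone EM1 15 such cells held 54 UMIs of Ccl17 and 60 of Ccl22, all in 2 cells with a Ccr7 UMI. In Clone M 42 such cells held 154 UMIs of Ccl17 and 282 of Ccl22, of which 235 UMIs of Ccl22 lay in 1 cell. These were 38.2% and 28.4% of the UMIs of each gene in that library, and 6 of the 8 cells with Ccl22 also had a Ccr7 UMI. In Parental 4T1 29 such cells held 204 UMIs of Ccl17, 185 of them in 1 cell, and 44 of Ccl22. EM2 and EM3 held at most 2 UMIs of either gene in this class, and Clone E had no such cell. Whether these cells belong with the dendritic cells was not tested.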

How the results depend on the processing

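No paired analysis was possible because each group has 1 tumour, with no second tumour to pair. Classes were compared within each tumour as ratios, without a test, since the classes come from the same counts. In the Total libraries, the fold of Clone M below the median of the other 5 tumours was 8.19 for Ccl17 and 1.14 for Ccl22, the lowest ratio of dendritic cells to macrophages was 47.1 and 118, the lowest dendritic percent of UMIs was 35.2 and 55.1, and the log2 ratio of Clone M over Clone E for Ccl22 was 0.082. With dendritic cells that had no Cd3 UMI, the folds were 7.14 and 2.19, and with those that had no C1q UMI they were 4.31 and 2.35. With the mean of each cell's own CPM the fold for Ccl22 was 2.39. The lowest Ccl17 ratio was 37.2 for macrophages with no dendritic UMI and 43.9 without the top cell. Leaving out the 2 tumours farthest from the median turned the sign of 3 relations, to 0.91, 0.93 and 0.37. With log2(CPM + 1), 3 of the 5 genes nearest to Ccl17 and 3 of those nearest to Ccr8 were shared with the main choice. The cause of these differences was not tested. The other 45 alternatives of the main comparisons were counted as unchanged. For levels, ratios and shares this meant staying within their interval or spread. For the relations only the sign of r was compared, and for the nearest genes the number shared, 4 of 5. The dendritic share, whose r went from -0.57 to -0.03 with Foxp3+ cells as a share of all cells, was thus counted as unchanged. Of the values of single tumours, 77 moved beyond their counting interval and 43 did not. With no C1q UMI the dendritic levels moved in 6 of 6 tumours, by 0.879 to 2.17 times for Ccl17 and 1.09 to 2.21 times for Ccl22. With no Cd3 UMI they moved in 5 of 6 tumours for each ligand. The ratios to the main level were 1.10 to 1.56 for Ccl17 and 1.10 to 1.63 for Ccl22. Without cells whose barcode occurs in another library, the folds were 5.42 and 1.74. The C1q and top-cell settings were chosen after seeing the data. Depth limits classes of few cells, above all the 93 dendritic cells of Clone M.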
